A study of Drosophila melanogaster with 12 samples.

Results

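The genes described here are 148 Drosophila melanogaster genes that the deposited wing RNA table lists only by a CG number, a serial identifier given to a predicted gene, and that were chosen by their levels in 4 groups of wings. A gene was selected on 3 differences between group means of log2(normalized count + 1): at least 2 for WT at +6 h minus WT at -6 h, at most -1 for EcR-RNAi minus WT at +6 h, and below 1 for EcR-RNAi minus WT at -6 h. It also needed to average 10 normalized counts or more across the 8 libraries. The table held 15240 genes, of which 7715 carried a CG number and 3410 of those reached the mean. Of the 3410, 370 met the WT stage threshold and 148, or 4.34%, met all 3. The same 3 thresholds were met by 135, or 3.09%, of the 4365 genes with other names that reached the mean. Since these values chose the 148 members, their differences between the 4 groups are given as a description, without a test.

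RNA was sequenced from whole dissected wings of females raised at 25 °C, with hours counted from puparium formation. EcR-RNAi wings at +6 h and at -6 h carried, on a yw/yw first chromosome, Vg-GAL4, UAS-Flp and the cassette Tub>>CD2>>GAL4, and UAS-GFP over UAS-EcR-RNAi[104]. WT wings at +6 h and at -6 h were labelled +/+ on each of the 3 chromosomes. Each of the 4 groups had 2 libraries, and per the labels the -6 h wings came from wandering larvae and the +6 h animals were staged as white prepupae. The vestigial driver acts in cells of the wing field, where the flipped cassette then keeps a tubulin driver on. Cells of the dissected tissue with neither the flip nor an active vestigial driver therefore lack the hairpin. The genotypes also differ in background and transgenes, and an effect of those cannot be told apart from one of EcR. In whole tissue, fewer cells of a type and less RNA per cell cannot be told apart either. No label tells whether the replicates are separate animals, so a p-value measures only how these samples spread, and that spread may be technical.

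EcR is the nuclear receptor for the steroid ecdysone and binds DNA with its partner Ultraspiracle. Without hormone the pair can hold target genes down, and with hormone it can switch them on. The ecdysone pulse at the end of larval life starts puparium formation, when the wing disc everts, its epithelium flattens, and its cells turn to secreting apical matrix and cuticle.

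The EcR gene was at 2201 and 2081 normalized counts in EcR-RNAi wings at +6 h, against 5764 and 6852 in WT wings at +6 h. It was at 1634 and 1307 in EcR-RNAi wings at -6 h, against 2194 and 1924 in WT wings at -6 h. Both EcR-RNAi libraries lay below both WT libraries at each stage. The log2 difference was -1.55 ± 0.14 (SE) at +6 h (limma adjusted p = 1.04e-05, n = 2 libraries per group) and -0.49 ± 0.14 at -6 h (limma adjusted p = 0.0449). The call at -6 h was lost in 6 alternatives: without limma's trend and robust settings, without either EcR-RNAi +6 h library, without either WT -6 h library, and without EcR-RNAi -6 h replicate 2, which gave -0.33 (limma adjusted p = 0.240), while without replicate 1 it was -0.65; its adjusted p ran from 0.00568 to 0.240.

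Recovered depth lay between 6444939 and 10016236 reads per library. The 10 wing disc markers fixed for the check, among them vg, nub and ap, summed to 22016 to 24224 normalized counts in EcR-RNAi at +6 h, 23978 to 25086 in WT at +6 h, 21658 to 27354 in the EcR-RNAi wings at -6 h and 27874 to 27987 in WT at -6 h, and all 10 were detected. Marker sums of other tissues differed between the groups. In the EcR-RNAi libraries at -6 h, 8 fat body markers summed to 2721 in replicate 1 and 5563 in replicate 2, against 528 to 1043 in WT at -6 h. Gut markers, 8 genes, summed to 920 and 261 in the same EcR-RNAi libraries, against 5.12 to 5.81 in WT at -6 h, and the defining gut protease and amylase genes summed to 0 in both EcR-RNAi libraries at +6 h and to at most 1.49 in WT at +6 h. Trachea markers, 8 genes whose list shares cuticle genes such as Gasp with the wing epithelium, summed to 56770 and 58909 in EcR-RNAi at +6 h, against 48631 and 23191 in WT at +6 h. Neuron and glia markers, 7 genes in the table, summed to 2043 to 2367 in EcR-RNAi at +6 h, 3603 to 3797 in WT at +6 h, 672 to 1060 in EcR-RNAi wings at -6 h and 1008 to 1081 in WT at -6 h, the same order of the +6 h groups as in the members. Hemocyte markers, 8 genes, summed to 580 to 924 in EcR-RNAi at -6 h, against 177 to 408 in WT at -6 h. At +6 h they summed to 186 to 191 in EcR-RNAi, against 282 to 315 in WT, again the order seen in the members. Fat body sums at +6 h, like the trachea sums, went the other way, with 1447 to 1714 in EcR-RNAi against 976 to 1159 in WT. The part of these tissues in the members' values was not tested.

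The members were higher at +6 h than at -6 h in WT wings by a median of 3.36 on the log2 scale (range 2.01 to 7.70). In EcR-RNAi wings the same stage difference had a median of 1.31 (range -0.75 to 5.51). At +6 h the members lay below WT in EcR-RNAi wings by a median log2 difference of -1.72 (range -5.76 to -1.01), and at -6 h the median genotype difference was 0.28 (range -2.85 to 0.995), or -0.09 after quantile normalization. Over all 7775 genes tested the corresponding medians were between -0.01 and 0.00. The median member was at 89.9 normalized counts in EcR-RNAi at +6 h, 391 in WT at +6 h, 38.7 in the EcR-RNAi wings at -6 h and 36.2 in WT at -6 h. Together the members took 0.884% and 0.890% of the normalized counts in EcR-RNAi at +6 h, against 2.31% and 2.43% in WT at +6 h, and 0.404% and 0.474% in EcR-RNAi at -6 h, against 0.363% and 0.348% in WT at -6 h.

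**Figure D1:**
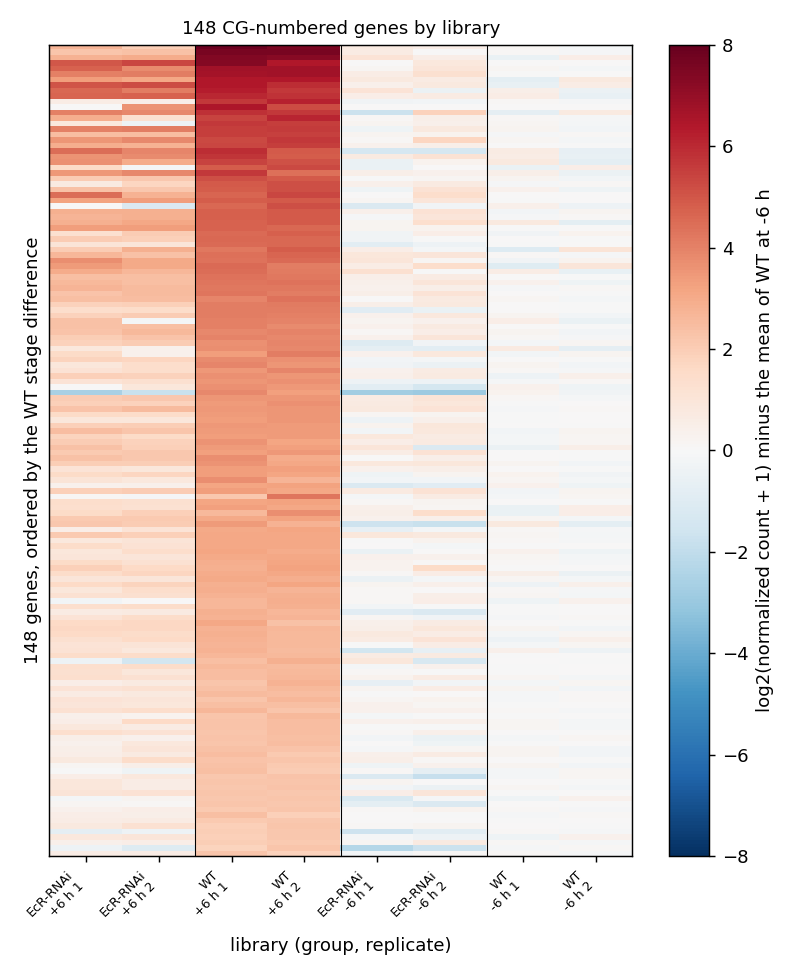
Each row is 1 of the 148 CG-numbered genes and each column 1 library, in the order EcR-RNAi +6 h, WT +6 h, EcR-RNAi -6 h and WT -6 h. Color gives log2(normalized count + 1) minus the gene's mean in WT at -6 h, and rows are ordered by the WT stage difference. The WT +6 h columns are darkest, the EcR-RNAi +6 h columns are paler for all 148 rows, and the -6 h columns are near 0 for most rows.

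Most members were higher at +6 h than at -6 h in EcR-RNAi wings too. These wings kept part of the EcR RNA, and cells of the tissue outside the driver's reach lack the hairpin. Whether a member needs EcR to rise was therefore not tested. The members' stage difference in these wings is fixed by the 3 differences of the rule, so its values are a description. In EcR-RNAi wings 144 of the 148 members were higher at +6 h than at -6 h, as were 3874 of all 7775 genes tested, and 4 members were at or below their -6 h mean. The stage difference in EcR-RNAi was at least 1 on the log2 scale for 95 members and at least 2 for 39, and for 706 and 335 of all genes tested. Its median share of the WT log2 stage difference was 38.5%. At +6 h the level in EcR-RNAi wings was a median of 29.8% of the WT level, at most 49.0%, and under 10% for 15 members. Both EcR-RNAi libraries at +6 h lay above both at -6 h for 134 members, where 30.0% of all genes tested did so. All 148 members had both EcR-RNAi +6 h libraries below both WT +6 h libraries, and both WT +6 h libraries above both WT -6 h libraries, where 36.9% and 39.6% of all genes tested did so. These are the groups the choice was made on, and nothing is read from the counts.

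Of the members, 136 were called lower in EcR-RNAi than in WT at +6 h by limma at an adjusted p under 0.05, and 21.6% of all 7775 genes tested were called lower and 21.3% higher. In the EcR-RNAi stage comparison 110 members were called higher, and the share over all genes was 12.1% higher and 3.88% lower. In the genotype by stage interaction, the EcR-RNAi stage difference minus the WT one, 122 members were called lower, and over all genes 15.4% were called lower and 11.6% higher. These contrasts use the groups that chose the members, so nothing is read from the counts of members. The split of all calls depends on the scaling of the libraries: with upper-quartile scaling the share of calls that were higher was 64.4%, against 49.6% as deposited, in the +6 h genotype comparison, 46.9% against 75.7% in the EcR-RNAi stage comparison and 60.6% against 43.1% in the interaction, and quantile normalization gave 52.7%, 45.3% and 54.2%. Upper-quartile scaling moved the median of all genes by 0.15, -0.13 and 0.17 on the log2 scale in these comparisons. Quantile normalization moved it by -0.15 in the EcR-RNAi stage comparison.

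The other CG-numbered genes with a WT stage difference of at least 2 fall in a pair of classes. In 169 genes EcR-RNAi was above WT by at least 1 already at -6 h, and there the EcR-RNAi stage difference had a median of 42.3% of the WT one. In 53 genes EcR-RNAi at +6 h was less than 1 below WT and at -6 h less than 1 above it, and the median share was 75.9%. The members' share was 38.5%, and the thresholds set part of this order.

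**Figure D2:**
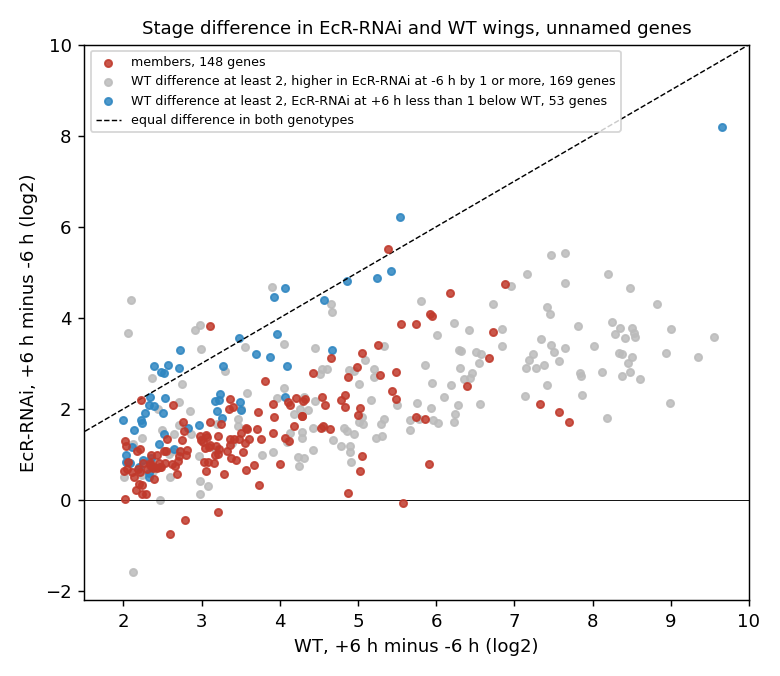
The log2 stage difference (+6 h minus -6 h) in EcR-RNAi wings (y axis) against that in WT wings (x axis), for the 370 CG-numbered genes with a WT difference of at least 2. Points are genes, red for the 148 members, grey for the 169 genes already higher in EcR-RNAi at -6 h, blue for the 53 genes less than 1 below WT at +6 h, and the dashed line marks equal differences. Most red points lie above 0 and below the dashed line.

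The most abundant members at +6 h in WT wings had a part of that level in EcR-RNAi wings. CG43366 had 7192 and 5773 normalized counts in EcR-RNAi at +6 h, against 19269 and 22398 in WT at +6 h, and 3133 and 2676 in EcR-RNAi at -6 h, against 2711 and 2354 in WT at -6 h. The +6 h groups stood apart from each other and from -6 h, while the -6 h groups overlapped. Its log2 difference between genotypes at +6 h was -1.69 ± 0.15 (SE), and its stage difference was 1.15 ± 0.15 in EcR-RNAi and 3.04 ± 0.15 in WT. CG4928 had 4841 and 4217 in EcR-RNAi at +6 h, against 9771 and 9514 in WT at +6 h, and 2082 and 1969 in EcR-RNAi at -6 h, against 1254 and 1019 in WT at -6 h. It was higher in EcR-RNAi than in WT before puparium formation and lower after it. CG15628 had 2107 and 1683 in EcR-RNAi at +6 h, against 6399 and 6372 in WT at +6 h, and 771 and 674 in EcR-RNAi at -6 h, against 750 and 767 in WT at -6 h, so that the genotypes overlapped at -6 h only.

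CG32354 stood apart among these abundant genes. It had 314 and 342 normalized counts in EcR-RNAi at +6 h, against 13041 and 13194 in WT at +6 h, and 106 and 68.0 in EcR-RNAi at -6 h, against 71.6 and 64.1 in WT at -6 h. In WT it had the highest level of all members after CG43366, while its EcR-RNAi libraries at +6 h stayed closer to the larval ones. Its log2 genotype difference at +6 h was -5.32 ± 0.18 (SE), against -1.09 to -2.10 for the other 9 of the 10 members with the highest WT level. Its span overlaps that of Exo70 in the Release 6 RefSeq annotation, and no source used here says whether reads were counted by strand.

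The other 6 of those 10 genes were also lower in EcR-RNAi at +6 h. CG31869 had 3040 and 2823 in EcR-RNAi at +6 h, against 8588 and 9996 in WT at +6 h. CG17672 had 3137 and 3530, against 7644 and 9258, in the same groups. CG13082 had 2378 and 2490 in EcR-RNAi at +6 h, against 6721 and 8937 in WT at +6 h. In each the +6 h groups did not overlap, as in all members. CG5065 had 2357 and 2132 in EcR-RNAi at +6 h, against 6693 and 6803 in WT at +6 h. CG11409 had 1394 and 1592 in EcR-RNAi, against 6444 and 6373 in WT, at that stage. CG5273 had 2694 and 2529 in EcR-RNAi at +6 h, against 5846 and 6672 in WT at +6 h. All 6 were above their own -6 h libraries in EcR-RNAi, with stage differences from 0.73 ± 0.18 (CG17672) to 2.24 ± 0.11 (CG5065) on the log2 scale. CG31869 and CG17672 overlap other annotated genes.

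**Figure D3:**
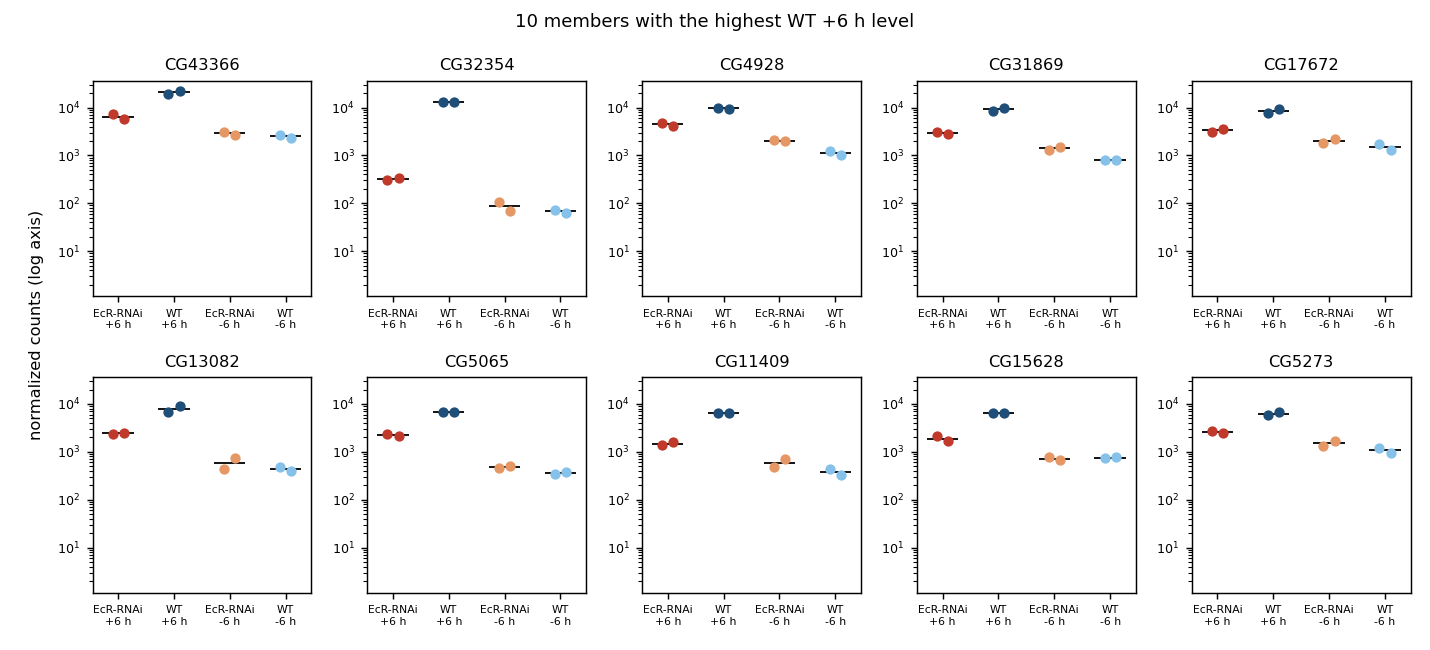
Normalized counts (log axis, the same in each panel) in each library for the 10 members with the highest mean in WT at +6 h. Points are libraries, bars are group means, and groups run from EcR-RNAi +6 h and WT +6 h to EcR-RNAi -6 h and WT -6 h. CG32354 drops to 314 and 342 in EcR-RNAi at +6 h, while CG43366 stays at 7192 and 5773.

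The 10 largest WT stage differences ran from 5.92 to 7.70 on the log2 scale, and CG32354, described above, was among them. CG13856 had 11.1 and 5.92 normalized counts in EcR-RNAi at +6 h, against 421 and 328 in WT at +6 h, and 1.95 and 1.64 in EcR-RNAi at -6 h, against 0.968 and 0.641 in WT at -6 h. Its WT reads at -6 h were 2 in all, and the ratio of +6 h to -6 h in WT was 475, with an exact 95% interval of 131 to 3933 that covers counting error only. CG3108 had 96.0 and 109 in EcR-RNAi at +6 h, against 2337 and 2157 in WT at +6 h, and 28.3 and 18.8 in EcR-RNAi at -6 h, against 8.71 and 19.2 in WT at -6 h. Both genes reached under 5% of the WT level at +6 h, 2.27% for CG13856 and 4.57% for CG3108. CG5921 had 690 and 735 in EcR-RNAi at +6 h, against 4237 and 4448 in WT at +6 h, and 64.3 and 101 in EcR-RNAi at -6 h, against 40.7 and 42.3 in WT at -6 h. It was above WT at -6 h in both libraries, by 0.94 ± 0.18 on the log2 scale, just inside the threshold of 1.

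Among other members with a large WT stage difference, the share left in EcR-RNAi varied. CG5399 had 584 and 607 in EcR-RNAi at +6 h, against 1558 and 1287 in WT at +6 h, and 33.1 and 35.2 in EcR-RNAi at -6 h, against 33.9 and 14.7 in WT at -6 h. Its stage difference was 4.08 ± 0.33 in EcR-RNAi and 5.92 ± 0.33 in WT, a share of 69.0%. CG5002 had 48.0 and 56.2 in EcR-RNAi at +6 h, against 128 and 91.3 in WT at +6 h, with at most 1.64 in any -6 h library. CG8646 had 45.5 and 23.7 in EcR-RNAi at +6 h, against 188 and 191 in WT at +6 h, with at most 2.46 at -6 h. CG13321 had 33.2 and 22.7 in EcR-RNAi at +6 h, against 106 and 69.2 in WT at +6 h, with at most 1.95 at -6 h. In these 3 genes the log2 share of the WT stage difference was 73.4% for CG5002, 55.0% for CG8646 and 68.1% for CG13321, and each rests on 1 to 4 reads per group at -6 h, where the pseudocount weighs on the log2 difference. CG7582, whose span overlaps Cap-D2, kept 39.2%, with 16.0 and 13.8 in EcR-RNAi at +6 h against 143 and 143 in WT at +6 h.

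In 4 members at least 1 group had no read. CG15615 had 30.8 and 40.4 in EcR-RNAi at +6 h, against 161 and 83.9 in WT at +6 h, and 0 and 0.819 in EcR-RNAi at -6 h, with no read in WT at -6 h. Against a floor of 3 reads over a group, it was at least 100.1-fold higher at +6 h than at -6 h in WT. CG13403 had 0 and 10.9 in EcR-RNAi at +6 h, against 88.0 and 36.7 in WT at +6 h, with no read at -6 h in either genotype, which makes it at least 50.1-fold higher at the later stage in WT. CG15269 had 20.9 and 5.92 in EcR-RNAi at +6 h, against 23.9 and 39.9 in WT at +6 h, a level at least 28.8-fold higher than in WT at -6 h. The 2 libraries of a group differed widely in CG13403 and CG15269. CG9686 had 54.1 and 36.5 in EcR-RNAi at +6 h, against 148 and 74.5 in WT at +6 h, with no read in EcR-RNAi at -6 h, against 2.90 and 0.641 in WT at -6 h. It was at least 33.2-fold higher at +6 h than at -6 h in EcR-RNAi wings.

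Among the 10 members lowest in EcR-RNAi relative to WT at +6 h, 6 had a stage difference in EcR-RNAi between -0.06 and 0.96 on the log2 scale. CG8086, the most abundant of the 10 after CG32354, had 73.8 and 66.1 in EcR-RNAi at +6 h, against 2528 and 3472 in WT at +6 h, and 39.0 and 40.9 in EcR-RNAi at -6 h, against 51.3 and 45.5 in WT at -6 h. Its stage difference was 0.79 ± 0.17 in EcR-RNAi, against 5.91 ± 0.17 in WT. CG43103 had 1.23 and 2.96 in EcR-RNAi at +6 h, against 198 and 129 in WT at +6 h, and 0.975 and 0.819 in EcR-RNAi at -6 h, against 15.5 and 10.2 in WT at -6 h. It was the member with the lowest genotype difference at both stages, -5.76 ± 0.51 at +6 h and -2.85 ± 0.51 at -6 h. CG9522, which lies over Flo2, had 1 read in EcR-RNAi at +6 h and 108 in WT at +6 h, a ratio of 0.00823 with an exact 95% interval of 0.000207 to 0.0468, which covers counting error only. CG32506, now tbc, had 3.69 and 0.986 in EcR-RNAi at +6 h, against 130 and 116 in WT at +6 h, and 1.95 and 2.46 in EcR-RNAi at -6 h, against 1.94 and 1.28 in WT at -6 h. Its EcR-RNAi groups overlapped between stages. CG9813 had 11.1 and 2.96, against 119 and 164, and CG9664 had 7.38 and 15.8, against 154 and 183, in EcR-RNAi and WT at +6 h.

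At the low end of the remaining stage difference, 3 members besides tbc were at or below their -6 h mean in EcR-RNAi wings. CG13675 had 11.1 and 4.93 in EcR-RNAi at +6 h, against 83.5 and 112 in WT at +6 h, and 29.2 and 5.73 in EcR-RNAi at -6 h, against 15.5 and 14.7 in WT at -6 h. The value of 29.2 stands apart and sets its stage difference of -0.75 ± 0.66. CG15097, which overlaps Phb2, had 7.38 and 8.88 in EcR-RNAi at +6 h, against 61.1 and 73.4 in WT at +6 h, and 9.75 and 13.1 in EcR-RNAi at -6 h, against 6.78 and 11.5 in WT at -6 h. CG12723 had 2.46 and 1.97 in EcR-RNAi at +6 h, against 13.4 and 60.8 in WT at +6 h. At moderate levels the flattest member was CG11438, with 301 and 326 in EcR-RNAi at +6 h, against 895 and 972 in WT at +6 h, and 254 and 370 in EcR-RNAi at -6 h, against 241 and 217 in WT at -6 h. The stages overlapped in EcR-RNAi wings, and its stage difference was 0.03 ± 0.16 there, against 2.02 ± 0.16 in WT.

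At the high end of the share of the WT stage difference left in EcR-RNAi stood CG34296, CG9686, CG7737, CG42500 and CG5002. Given the +6 h threshold, a stage difference as large as in WT goes with a -6 h level below WT by construction. CG34296 had 40.6 and 36.5 in EcR-RNAi at +6 h, against 98.4 and 62.9 in WT at +6 h, and 1.95 and 1.64 in EcR-RNAi at -6 h, against 14.5 and 4.48 in WT at -6 h. Its log2 stage difference was 3.82 ± 0.50 in EcR-RNAi and 3.11 ± 0.50 in WT, a share of 123%. The shares were 102% for CG9686, 98.8% for CG7737 and 79.1% for CG42500. The larval level of CG9686 in EcR-RNAi was 0 reads and that of CG7737 3 reads, so the pseudocount weighs on their shares and no equality between genotypes follows. CG5002, with a share of 73.4%, lay 0.60 above WT at -6 h. The other 4 are among the 10 members that lay at least 1 below WT on the log2 scale at -6 h, with CG10126, CG12560, CG15506, CG30269, CG43103 and CG43107. CG7737 had 8.61 and 10.9 in EcR-RNAi at +6 h, against 28.3 and 31.5 in WT at +6 h, with 3 reads in EcR-RNAi at -6 h. CG42500 had 17.2 and 13.8 in EcR-RNAi at +6 h, against 53.7 and 45.1 in WT at +6 h.

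At -6 h, 101 of the 148 members lay above WT in EcR-RNAi wings with the deposited scaling, as did 3934 of all 7775 genes tested, and the rule used this difference. Replicate 2 of EcR-RNAi at -6 h exceeded replicate 1 in 105 members, with a median log2 difference of replicate 1 minus replicate 2 of -0.23. Over all genes tested replicate 2 was higher in 4073 of 7775, with a median of -0.02, and in the 169 genes already higher at -6 h it was higher in 152, with a median of -0.76. This library had the higher fat body sum, 5563 against 2721 in replicate 1, and the higher trachea sum, 27507 against 21022. Its gut sum was lower, 261 against 920, as were its hemocyte sum, 580 against 924, and its neuron and glia sum, 672 against 1060. Its wing disc and muscle sums were also lower, and its salivary gland sum was higher. The part of these tissues in the replicate difference was not tested. Without replicate 2 of EcR-RNAi at -6 h the median genotype difference of the members at -6 h was 0.12, against 0.28 with both libraries, and 162 genes met the rule. The median absolute difference between replicates over the members was 0.19 in EcR-RNAi at +6 h, 0.18 in WT at +6 h, 0.35 in the EcR-RNAi wings at -6 h and 0.26 in WT at -6 h.

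Position in the genome was not used to choose the members. In the order of genes of the Release 6 annotation, 4 pairs of members were direct neighbours. Such pairs were not counted over all genes tested, so nothing is read from their number. CG43103 stood beside CG43107, which had 9.84 and 5.92 in EcR-RNAi at +6 h, against 49.2 and 66.1 in WT at +6 h, and 1.95 and 3.28 in EcR-RNAi at -6 h, against 12.6 and 14.1 in WT at -6 h. Both genes of the pair were lower in EcR-RNAi than in WT in every library at each stage. CG34296 stood beside CG15506, which had 20.9 and 21.7 in EcR-RNAi at +6 h, against 155 and 162 in WT at +6 h, and 6.82 and 8.19 in EcR-RNAi at -6 h, against 20.3 and 12.8 in WT at -6 h. In this pair, too, both genes were lower in EcR-RNAi at both stages. CG9686 stood beside CG9689, whose larval values went the other way, with 255 and 373 in EcR-RNAi at -6 h, against 169 and 161 in WT at -6 h. At +6 h CG9689 had 700 and 736 in EcR-RNAi, against 1617 and 1805 in WT. CG30269 and CG30273 overlap in the annotation and their reads cannot be told apart without the strand. CG30269 had 30.8 and 32.6 in EcR-RNAi at +6 h, against 146 and 126 in WT at +6 h, and CG30273 had 62.7 and 89.8, against 297 and 271.

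There were 8 members with a direct neighbour with another name that met the same 3 thresholds. They were CG18130 beside fw, CG2911 beside Spec2, CG32971 beside wb, CG4928 beside wus, CG5639 beside dsd, CG8066 beside Cys, CG8086 beside Btk29A and CG8646 beside nemy. The wb gene encodes a laminin alpha subunit and Btk29A a Tec family tyrosine kinase. The neighbours' log2 differences between EcR-RNAi and WT at +6 h ran from -2.48 (Cys) to -1.29 (fw), against -5.39 for CG8086 and -1.09 for CG4928 among the members. CG2911 overlaps Spec2 and CG32971 overlaps wb, so the reads of these pairs may be shared. In all, 71 members overlap at least 1 other annotated gene. The counts of 8 and 71 members were not made over all genes tested either, and nothing is read from them.

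Although the table gives a CG number, 29 of the 148 members, 19.6%, carry another symbol in the RefSeq table. The share was 16.0% of the 169 genes already higher in EcR-RNAi at -6 h and 15.1% of the 53 less affected genes. Roles below are background knowledge of the named genes, and the groups were formed after the values were seen.

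Several of these symbols belong to lipid and isoprenoid metabolism. Mvd (CG8239), the decarboxylase that makes isopentenyl diphosphate, had 264 and 310 in EcR-RNAi at +6 h, against 1290 and 1740 in WT at +6 h, and 148 and 188 in EcR-RNAi at -6 h, against 123 and 110 in WT at -6 h. Pmvk (CG10268), the kinase just before it, had 82.4 and 93.7 in EcR-RNAi at +6 h, against 458 and 493 in WT at +6 h, and 29.2 and 28.7 in EcR-RNAi at -6 h, against 35.8 and 41.6 in WT at -6 h. The log2 genotype differences at +6 h were -2.38 ± 0.17 for Mvd and -2.42 ± 0.18 for Pmvk. Acat2 (CG9149), the acetyl-CoA acetyltransferase at the pathway's entry, had 199 and 163 in EcR-RNAi at +6 h, against 498 and 494 in WT at +6 h, and 124 and 110 in EcR-RNAi at -6 h, against 109 and 102 in WT at -6 h. Pdss2 (CG10585), a subunit of the synthase that builds the ubiquinone side chain, had 314 and 341 in EcR-RNAi at +6 h, against 1306 and 1460 in WT at +6 h, and 44.8 and 94.2 in EcR-RNAi at -6 h, against 44.5 and 50.6 in WT at -6 h. Pdss2 stayed at 23.7% of the WT level at +6 h and Acat2 at 36.5%. Pmvk overlaps msb1l and Pdss2 overlaps asRNA:CR45801 in the annotation, so the reads of these pairs may be shared.

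The pathway these 4 genes belong to runs from acetyl-CoA through mevalonate to isopentenyl diphosphate and then to longer isoprenoid chains, which serve protein prenylation, ubiquinone and juvenile hormone, and flies do not use it to make sterols. A list of 10 of its genes was written after the members were seen, so it has no test, and 9 were measured at the mean of 10. Of these 9, 5 met the 3 thresholds, as did 283 of all 7775 genes tested. They were the 4 members, which led to the list, and Hmgs, the synthase of an early step. Hmgs had 608 and 625 in EcR-RNAi at +6 h, against 3974 and 4056 in WT at +6 h, and 238 and 281 in EcR-RNAi at -6 h, against 204 and 201 in WT at -6 h. The log2 genotype difference at +6 h was -2.70 ± 0.11 for Hmgs, -0.96 ± 0.12 for Fpps, farnesyl diphosphate synthase, -0.96 ± 0.26 for Idi (CG5919), the isomerase, and -0.07 ± 0.15 for qm, geranylgeranyl diphosphate synthase. The partner subunit of Pdss2, qless, was at -1.64 ± 0.33 and lay 1.18 above WT at -6 h, outside the threshold for that stage. The Mvk gene (CG33671) was listed at 0 in every library.

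**Figure D4:**
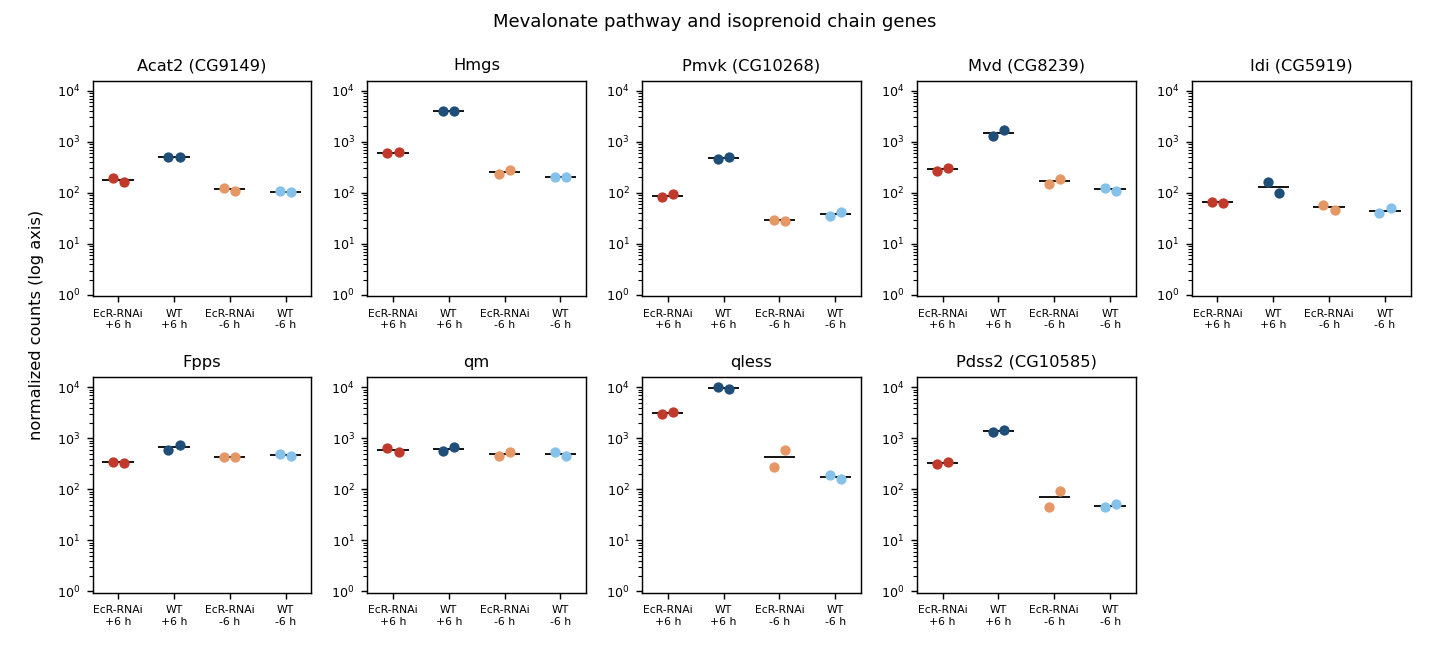
Normalized counts (log axis, the same in each panel) in each library for 9 mevalonate and isoprenoid chain genes, a list written after values were seen. Points are libraries and bars are group means, from EcR-RNAi +6 h and WT +6 h to EcR-RNAi -6 h and WT -6 h. Hmgs, Pmvk, Mvd and Pdss2 are well below WT in EcR-RNAi at +6 h, and qm shows overlapping groups.

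Other lipid genes among the members had lower levels. Jabba (CG42351), a lipid droplet protein, had 23.4 and 22.7 in EcR-RNAi at +6 h, against 128 and 151 in WT at +6 h. Hacd1 (CG6746), a dehydratase of very-long-chain fatty acid elongation, had 103 and 93.7 in EcR-RNAi, against 352 and 463 in WT, at that stage. Pex11c (CG13827), of the peroxisomal Pex11 family, had 41.8 and 59.2 in EcR-RNAi at +6 h, against 152 and 183 in WT at +6 h. As in all members, the genotypes did not overlap at +6 h, and all 3 genes had log2 genotype differences within -0.16 and 0.02 at -6 h. Gba1b (CG31414), a glucocerebrosidase, lay at the threshold, with 52.9 and 51.3 in EcR-RNAi at +6 h against 98.4 and 114 in WT at +6 h.

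Genes of sugar and glycan handling included Pgant9 (CG30463), which starts O-linked glycans on secreted proteins. It had 845 and 787 in EcR-RNAi at +6 h, against 2974 and 3271 in WT at +6 h, and 519 and 418 in EcR-RNAi at -6 h, against 554 and 682 in WT at -6 h. It was lower in EcR-RNAi at both stages. Nagk (CG6218), an N-acetylglucosamine kinase, had 49.2 and 53.3 in EcR-RNAi at +6 h, against 134 and 115 in WT at +6 h. Gbs-70E (CG9238), a glycogen-targeting subunit of protein phosphatase 1, had 561 and 511 in EcR-RNAi at +6 h, against 1306 and 1114 in WT at +6 h. Both were above WT in EcR-RNAi at -6 h, by 0.93 ± 0.27 for Nagk and 0.68 ± 0.13 for Gbs-70E on the log2 scale.

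Membrane transporters among the members were chk (CG3409), a monocarboxylate transporter, NKCC (CG31547), a sodium-potassium-chloride cotransporter, and SLC5A11 (CG8451), of the sodium-solute cotransporter family. The chk gene had 533 and 493 in EcR-RNAi at +6 h, against 1883 and 1334 in WT at +6 h, and 361 and 358 in EcR-RNAi at -6 h, against 342 and 381 in WT at -6 h. NKCC had 59.0 and 46.4 in EcR-RNAi at +6 h, against 133 and 98.6 in WT at +6 h. SLC5A11 had 70.1 and 79.9 in EcR-RNAi at +6 h, against 246 and 221 in WT at +6 h. At +6 h SLC5A11 was at 32.1% and NKCC at 45.6% of the WT level. All 3 had both EcR-RNAi libraries below both WT libraries at +6 h, as did all 148 members and 36.9% of all genes tested.

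The cytoskeletal genes were Svil (CG33232), of the actin-binding villin and gelsolin family, and TTLL15 (CG4089), of the tubulin tyrosine ligase-like family. Svil had 747 and 695 in EcR-RNAi at +6 h, against 2028 and 2035 in WT at +6 h, and 467 and 424 in EcR-RNAi at -6 h, against 363 and 389 in WT at -6 h. TTLL15 had 91.0 and 135 in EcR-RNAi at +6 h, against 526 and 575 in WT at +6 h, and 39.96 and 55.7 in EcR-RNAi at -6 h, against 65.8 and 60.2 in WT at -6 h. Svil was slightly higher and TTLL15 slightly lower in EcR-RNAi than in WT at -6 h. The RefSeq span of Svil overlaps 6 other genes.

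The most abundant of the renamed members were prage (CG42666), Pura (CG33275) and Jhbp2 (CG2016), a juvenile hormone-binding protein by name. Jhbp2 had 964 and 983 in EcR-RNAi at +6 h, against 3745 and 4119 in WT at +6 h, and 183 and 299 in EcR-RNAi at -6 h, against 115 and 161 in WT at -6 h. The prage gene had 1233 and 1223 in EcR-RNAi at +6 h, against 4763 and 4259 in WT at +6 h. Pura had 1917 and 2028 in EcR-RNAi at +6 h, against 5531 and 3254 in WT at +6 h, with the widest replicate gap of the 3. The germline Tudor-domain gene tapas (CG8920) had 616 and 651 in EcR-RNAi at +6 h, against 1757 and 1801 in WT at +6 h, and its genotypes overlapped at -6 h. Atg18b (CG8678), of the Atg18 family of autophagy proteins, had 66.4 and 109 in EcR-RNAi at +6 h, against 197 and 183 in WT at +6 h. The symbols thw, Dph4, Rsod, Targ2, ldd and tpr, with asRNA:CR43933, complete the 29, at 9.68% to 47.1% of the WT level at +6 h.

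The members can be set beside genes of known roles in the prepupal wing. Of 13 Osiris family genes tested, a family of insect membrane proteins made by cuticle-secreting epithelia, 11 were called lower and 0 higher in EcR-RNAi than in WT at +6 h (limma, adjusted over all 7775 genes), with a median of -2.42. The EcR-RNAi stage comparison called 10 of the 13 higher and 0 lower, with a median of 2.40, and 5, Osi1, Osi3, Osi5, Osi9 and Osi20, met the 3 thresholds. Osi9 had 221 and 230 in EcR-RNAi at +6 h, against 2675 and 2281 in WT at +6 h, and its interaction, the EcR-RNAi stage difference minus the WT one, was -3.80 ± 0.21 (SE, limma adjusted p = 9.68e-07). Of 19 genes of the apical matrix list, 13 were called lower and 2 higher at +6 h, with a median of -1.72. This list holds zona pellucida domain genes and also actin and wing hair genes such as f, sn and mwh. It further includes the protease genes Np and Sb and the cyclophilin-like gene Cypl. Of 19 genes of the secretory pathway list, 14 were called lower and 0 higher, with a median of -0.70, and 0 met the 3 thresholds. That list also holds the transcription factor genes Xbp1 and crc. Of 36 cuticle and chitin genes, 6 were called lower and 11 higher, with a median of 0.67. The tanning enzymes split 3 lower and 2 higher of 10, and the ecdysone receptor, nuclear receptor and early gene list 11 lower and 3 higher of 23, in which vri met the thresholds. Over all genes 21.6% were called lower and 21.3% higher, which is close to the tanning counts and to the count of lower cuticle genes. The Osiris count of lower genes at +6 h was 7 without EcR-RNAi +6 h replicate 1, 6 without WT +6 h replicate 1 and 7 without WT +6 h replicate 2, and 4 Osiris genes were called higher in the EcR-RNAi stage comparison without either EcR-RNAi +6 h library. The 11 cuticle genes called higher became 6 without EcR-RNAi +6 h replicate 2 and 7 without WT +6 h replicate 2, the 2 tanning enzymes became 0 without these or EcR-RNAi +6 h replicate 1, and the 11 lower and 3 higher ecdysone genes became 7 lower without EcR-RNAi +6 h replicate 2 and 5 higher without either EcR-RNAi -6 h library, while upper-quartile scaling gave 6 higher and quantile normalization 7. The lists were chosen with earlier results known, and the trachea sums given above move between the same groups.

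The members just inside a threshold differ little from genes just outside. For the WT stage difference, CG10877 at 2.01 and CG43107 at 2.02 were inside, and CG10671 at 1.99 and CG33169 at 1.94 outside. For the +6 h genotype difference, CG31414 and CG34296 at -1.01 were inside, and CG18507 at -0.999 and CG17104 at -0.997 outside. For the -6 h genotype difference, CG31547 at 0.995 and CG5921 at 0.94 were inside, and CG31100 at 1.01 and CG7367 at 1.02 outside. For the mean, CG10660 at 10.5 and CG12723 at 11.2 normalized counts were inside, and CG14964 at 9.84 and CG34353 at 9.49 outside. In 29 members the mean of the 6 libraries other than WT at +6 h was under 10, so they passed the filter only through the group in which they are high. In WT at +6 h, 52 members had a mean of at least 1000 normalized counts and 34 a mean under 100.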

How the data were processed

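RNA levels came from 8 libraries, 4 groups of 2, grouped by sample title. The deposited RNA table holds normalized counts, a signal the authors made by scaling read counts with 1 factor per library; in the values, 100.0% were whole multiples of the worth of 1 read (tolerance 0.1 read). The submitters' processing notes name STAR 2.5.2b, SAMtools 1.3.1, Subread 1.24.2, DESeq2 1.14.1 and build dm3, without roles. The members and lists were chosen with earlier results of these data known.

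Genes with a mean of at least 10 (7775) were fitted in R 4.3.3 with limma 3.58.1 (trend, robust) on log2(normalized count + 1), as 4 group means, with Benjamini-Hochberg adjustment over all genes and calls at 0.05. This scale understates changes of low genes. Values after ± are standard errors of log2 differences. The fit was also run on simulated counts, in which 200 genes changed in EcR-RNAi at +6 h and all other means were equal between groups. Those settings are unlike these data, so the run does not bear on the calls given here. Alternatives included edgeR 4.0.16 and DESeq2 1.42.0 on the recovered reads.

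Members named are the 10 with the highest WT +6 h mean, the 10 with the largest WT stage difference, the 10 with the lowest genotype difference at +6 h, the 5 with the largest and the 5 with the smallest share of the stage difference left in EcR-RNAi, those with no read in a group, direct neighbours, and those with a current symbol, the last chosen after values were seen. Of each list the 2 genes with the lowest interaction p are given. Of the members, 146 matched 1 entry of the RefSeq table (Release 6), used for names, overlaps and neighbours. EcR binding sites, promoters and proteins were not analysed here. A further gene of the isoprenoid pathway is not reported here.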

Additional observations from a re-analysis of the deposited data

Results flagged for a closer look

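The stage difference differed between EcR-RNAi and WT wings, by the limma interaction test adjusted over all 7775 genes, in EcR and in the 12 genes with the lowest interaction p in 6 lists, 2 from each. The 12 were picked by this p, so their calls add nothing to the counts of their lists. Over all genes tested 15.4% were called lower and 11.6% higher in the interaction. The interaction is the EcR-RNAi stage difference minus the WT one, on the log2 scale. It was -1.06 for EcR itself, -2.26 for the ecdysone-inducible transporter gene E23 and -1.48 for Eip71CD; over the 23 genes of their list it was called higher for 6, lower for 7 and not called for 10, with a median of 0.09. In the Osiris family, called lower for 12 of 13 genes, it was -3.77 for Osi24 and -3.80 for Osi9. In the apical matrix list, called lower for 12 and higher for 1 of 19, it was -3.21 for nyo, a zona pellucida domain gene, and -3.25 for f (forked), an actin bundling gene. In the cuticle and chitin list, called lower for 8, higher for 3 and not called for 25 of 36, it was -2.04 for the chitinase gene Cht5 and 1.503 for Idgf4, which was lower at +6 h than at -6 h in both genotypes. In the tanning list, called lower for 4 and not called for 6 of 10, it was -3.68 for amd and -1.74 for laccase2. In the secretory list, called lower for 14 and not called for 5 of 19, it was -1.17 for Sec61beta and -1.11 for Sec61alpha, both translocon subunits. A genotype difference at either stage enters the interaction. In E23, Osi24, f and amd, EcR-RNAi was above WT by at least 1 on the log2 scale already at -6 h. These genes were also below WT by at least 1 at +6 h, so their interactions hold both parts. In EcR and the others of the 12, EcR-RNAi at -6 h was less than 1 above WT or was below it.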

How the results depend on the processing

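With 2 libraries per group, a wide replicate gap in low genes limits each member's values. The rule gave 148 genes, 98 with a minimum mean of 50, 112 with upper-quartile scaling (112 shared with the 148), 152 with quantile normalization (118 shared), 156 with a pseudocount of 5 (134 shared) and 136 to 162 without 1 library. Genes called higher and lower in EcR-RNAi against WT at +6 h numbered 1094 to 1708 and 1196 to 1811 without 1 library, against 1653 and 1680 with all, with 1094 higher without EcR-RNAi +6 h replicate 2. In the EcR-RNAi stage comparison they numbered 506 to 967 and 96 to 318, against 943 and 302, with the fewest calls without an EcR-RNAi +6 h library (521 and 506 higher, 99 and 96 lower), and 161 lower without EcR-RNAi -6 h replicate 1. Lower calls there came to 874 with upper-quartile scaling, 945 with quantile normalization and 182 with DESeq2. In the interaction they numbered 584 to 991 and 862 to 1192, against 905 and 1197, with the fewest higher calls without EcR-RNAi +6 h replicate 2. Higher calls came to 1377 with upper-quartile scaling. The causes were not tested. With the replicate number as a block the counts were 1647 and 1679, 915 and 271, and 889 and 1172 (higher and lower in the same order of comparisons). The correlations of same-numbered deviations between groups were -0.148 to 0.129. The labels do not say what the replicate numbers mark, so whether they pair the libraries is not known. Of the named genes, calls in the EcR-RNAi stage comparison were lost for Sec61alpha in 13 alternatives, EcR in 5 and Sec61beta in 2. No called difference of a named gene with a test changed sign. The side with more calls changed in each comparison, both with upper-quartile scaling and with quantile normalization. In the EcR-RNAi stage comparison upper-quartile scaling gave 773 higher and 874 lower calls, and quantile normalization 782 and 945. The members' median genotype difference at -6 h, which has no test, changed sign with quantile normalization. Medians of the members over all settings, an alternative added after seeing the data, were 2.96 to 3.41 for the WT stage difference, 1.03 to 1.45 for the EcR-RNAi one, -1.76 to -1.57 for the genotype difference at +6 h and -0.09 to 0.37 at -6 h. The 2 alternatives for EcR peaks around members were not run.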
